A study of Glycine max with 44 samples.

Results

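Malate synthase (gene symbol MS) and isocitrate lyase (ICL1) are the pair of enzymes that set the glyoxylate cycle apart from the citric acid cycle. Their transcripts were followed in soybean (Glycine max) root tips through all soybean probe sets whose only annotated gene symbol is MS or ICL1. These are 2 of the 6029 genes (locus numbers included) named alone by a soybean probe set, and 3 probe sets of 37593 for soybean, 1 for MS and 2 for ICL1. All 3 passed the filter on low values, as did 35289 soybean probe sets in all. The pair was chosen by its measured levels in PI 416937 roots at 2 h, which were high with Al and low without. Every comparison that uses the PI 416937 arrays of 2 h is therefore described here with no test.

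The glyoxylate cycle lets plants turn the acetyl-CoA released by fatty acid breakdown into organic acids and then sugar. Isocitrate lyase cleaves isocitrate into succinate and glyoxylate, and malate synthase joins glyoxylate with acetyl-CoA to give malate. Both enzymes sit in glyoxysomes, a form of peroxisome, and are best known from oilseed cotyledons after germination, where stored oil is used up. They are also known to be switched on in plant tissues that are starved of sugar or senescing. Malate has a further role in roots, since some plants release it, or citrate, to bind aluminium (Al) outside the root.

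RNA came from the last 1 cm of the tap root of plants in hydroponics, which received 10 µM Al or 0 µM Al. The labels call the genotype PI 416937 Al-tolerant and the genotype Young Al-sensitive. Roots were taken after 2, 12, 48 and 72 h, so that there were 16 groups: PI 416937 with Al, PI 416937 untreated, Young with Al and Young untreated, each at the 4 times. A group had 2 arrays at 2 h and 3 arrays at each later time, 44 in all. Whether the replicates were separate cultures is not stated in the labels, and the p-values then cover only the spread between these arrays, which may be technical. In root tips, fewer cells of a type and less RNA per cell cannot be told apart.

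Levels are deposited intensities on the scale log2(intensity + 16), called log2 units below. Background was 4.41 log2 units, or an intensity of 5.33, the 95th percentile of the means of 23350 probe sets for other organisms on the same array. On this scale, differences of dim probe sets are smaller than their fold changes of intensity. No 2 arrays were identical. The number of tested probe sets at least 2 log2 units above the mean of the other arrays of the group ran between 0 and 1062 per array. MS was more than 1 log2 unit above background in 11 arrays, with numbers from 30 to 487. The lowest was Al-treated PI 416937 replicate 3 at 12 h and the highest untreated PI 416937 replicate 1 at 2 h. Among the others, it was 366 for Al-treated Young replicate 1 at 2 h. It was 140 for untreated PI 416937 replicate 1 at 12 h and 193 for Al-treated Young replicate 2 at 72 h.

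MS (gene ID 732628) lies on chromosome 17, from 10228320 to 10231916, in the assembly Glycine_max_v4.0. It is read by 1 probe set. ICL1 (gene ID 100789036, also listed as ICL) lies on chromosome 6, from 48803773 to 48806985. Its 2 probe sets are called here by the endings of their names, _at and _s_at. The ending _s_at marks probes that can match more than 1 transcript, so that signal from a near-identical copy cannot be told apart. The _s_at probe set had the higher mean over all arrays and represents ICL1 below. Levels are compared between arrays for 1 probe set at a time, and not between MS and ICL1.

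Both genes were at or near background in most arrays. MS exceeded background by more than 1 log2 unit in 11 of 44 arrays. ICL1 did so in 5 arrays by the _s_at probe set and in 7 arrays by the _at probe set. By group mean, MS was above background in 14 of 16 groups, the _at probe set in 9 and the _s_at probe set in 16. The _s_at probe set never fell below 4.69 log2 units, and all 44 of its values were above background. The other probe set of ICL1 had only 17 arrays above background.

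The highest MS values of the series were in Al-treated PI 416937 roots at 2 h. There, MS had intensities of 1031 and 1111, against 31.3 and 4.90 in untreated PI 416937 roots at 2 h. On the log2 scale this is 10.08 ± 0.08 with Al and 4.98 ± 0.83 untreated (SD, n = 2 each), a difference of 5.11. Both Al arrays lay far above both untreated arrays, of which only replicate 1 was clearly above background. By geometric means of intensity, MS was 82.7-fold higher with Al when the untreated array below its detection floor was set to that floor (the 95th percentile of the other organisms' probe sets on that array). It was 34.1-fold higher than in untreated replicate 1 alone, the 1 untreated array above its floor.

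ICL1 was high in the same arrays. By the _s_at probe set it had 8.45 and 7.63 log2 units with Al, against 4.94 and 4.81 untreated, in PI 416937 at 2 h. The means were 8.04 ± 0.59 and 4.87 ± 0.09 (SD, n = 2 each), 18.5-fold apart by geometric means of intensity. The _at probe set gave 8.64 and 7.61 log2 units with Al, against 4.37 and 4.37 untreated. Neither untreated array was above its floor on the _at probe set, so that with both set to their floors the geometric means were at least 49.0-fold apart. For all 3 probe sets the Al and untreated arrays did not overlap. Of all tested probe sets, 15.4% were likewise higher with Al with no overlap in this comparison of 2 with 2 arrays, and since it chose the members nothing is read from their count.

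**Figure D1:**
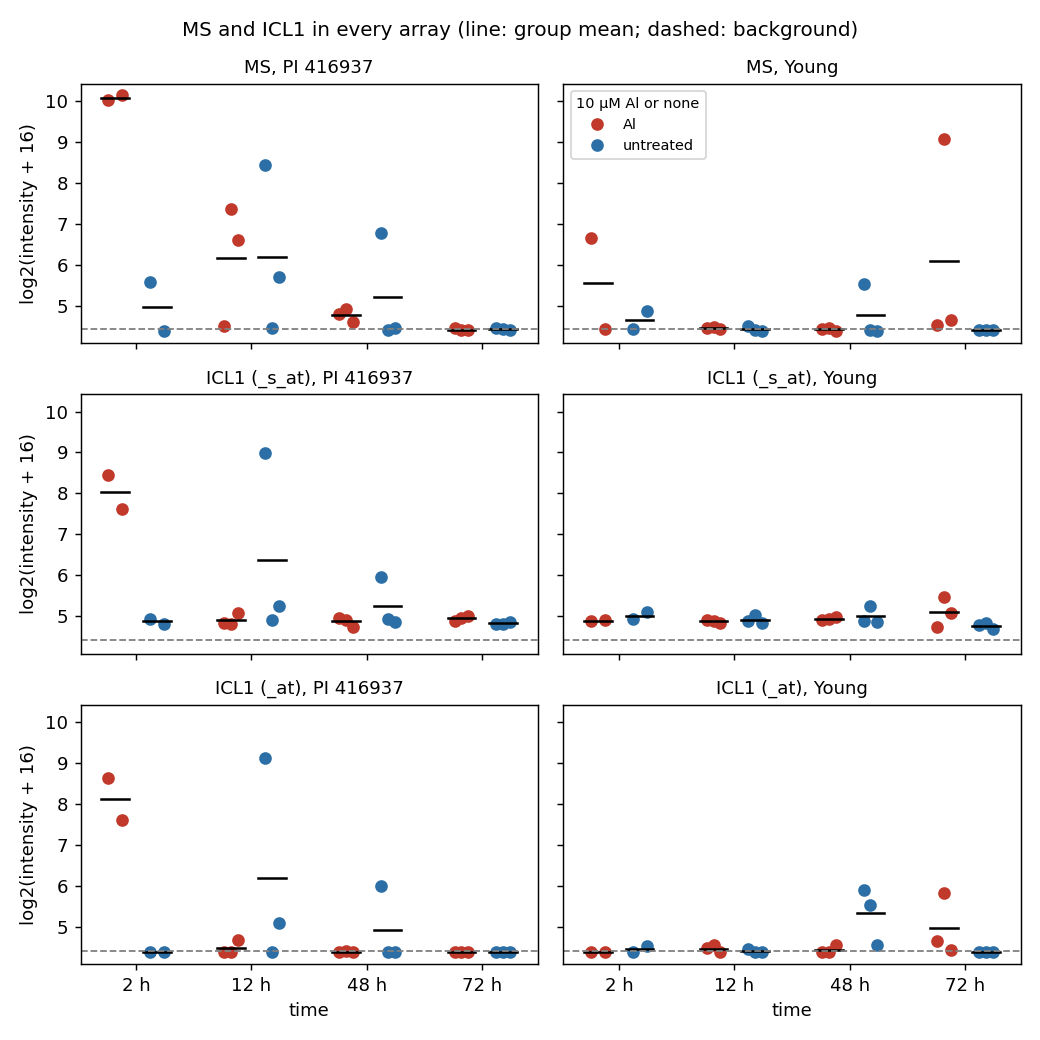
Level of MS (top), ICL1 by the _s_at probe set (middle) and ICL1 by the _at probe set (bottom) in every array, as log2(intensity + 16), in PI 416937 (left) and Young (right). Points are arrays, with Al in red and untreated in blue; black lines are group means and the dashed line is the background of 4.41. MS is above 10 in both Al-treated PI 416937 arrays at 2 h, while single arrays stand high in other groups.

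In Young, MS and ICL1 stayed lower after the same 2 h of Al. MS had 6.65 and 4.43 log2 units in Al-treated Young roots, against 4.43 and 4.87 in untreated Young roots. One Al array was higher than the rest and the other was level with an untreated one, so the groups overlapped. The difference of 0.89 ± 1.07 (± standard error of the limma contrast, here and below) was not called, with an adjusted p of 0.999993 by limma, where 0.105% of all tested probe sets were called. It was -0.22 without Al replicate 1 and 2.00 without Al replicate 2. ICL1 by the _s_at probe set had 4.88 and 4.90 log2 units with Al and 4.92 and 5.10 untreated in Young, a difference of -0.12 ± 0.63 that was not called either. Set side by side, the Al minus untreated difference of MS at 2 h was 5.11 in PI 416937 and 0.89 in Young, and that of ICL1 (_s_at) was 3.17 in PI 416937 and -0.12 in Young.

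After 2 h the levels in Al-treated PI 416937 roots were lower. MS averaged 10.08 log2 units at 2 h, 6.15 ± 1.48 at 12 h, 4.77 ± 0.16 at 48 h and 4.41 ± 0.04 at 72 h with Al (SD, n = 3 from 12 h on). At 12 h the 3 arrays spread widely, with 4.50, 7.36 and 6.60 log2 units, so that 2 of 3 were still well above background. By 72 h the MS mean with Al was at background. ICL1 (_s_at) averaged 8.04 log2 units at 2 h, 4.91 ± 0.15 at 12 h, 4.87 ± 0.12 at 48 h and 4.94 ± 0.07 at 72 h with Al. Thus at 12 h the 2 arrays with high MS had ICL1 at 4.81 and 5.08, within the range of its low arrays.

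Untreated PI 416937 roots also held both transcripts at times, in single arrays. At 12 h MS had 8.44, 4.46 and 5.69 log2 units untreated, and replicate 1 stood far above the other arrays. In that array ICL1 reached 9.00 by the _s_at probe set, the highest value of that probe set in the series, against 4.89 and 5.24 in the other two. Its intensity was 495 there, and 541 by the _at probe set. At 48 h MS had 6.76, 4.39 and 4.45 and ICL1 (_s_at) had 5.96, 4.92 and 4.86 in untreated PI 416937 roots, again with replicate 1 high for both genes. By 72 h untreated MS was between 4.39 and 4.46 in all 3 arrays, and ICL1 (_s_at) between 4.81 and 4.86.

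At 12 h neither gene was called different between Al-treated and untreated PI 416937 roots. The difference of MS, Al minus untreated, was -0.04 ± 0.87 at 12 h (adjusted p = 0.999996 by limma), with groups that overlapped. ICL1 averaged 4.91 log2 units with Al and 6.38 ± 2.28 untreated by the _s_at probe set, a difference of -1.47 ± 0.52. Its unadjusted p was 0.0079 and its adjusted p 0.999996 by limma, so it was not called, in a comparison where 0.00283% of probe sets were. Untreated replicate 1 decides that value: without it the difference was -0.16. By the _at probe set the difference was -1.73 ± 0.63 (adjusted p = 0.999996 by limma), and -0.26 without that array.

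The highest MS value of Young was in 1 array at 72 h. MS had 4.53, 9.07 and 4.64 log2 units in Al-treated Young roots at 72 h, against 4.39, 4.39 and 4.39 in untreated Young roots. Replicate 2 had an intensity of 520 and the other Al arrays lay just above the untreated ones, so the groups did not overlap, as for 16.6% of tested probe sets that were higher with Al there. The difference was 1.69 ± 0.87 (adjusted p = 0.29 by limma), where 3.7% of probe sets were called. It was 0.20 without Al replicate 2 and 2.46 without Al replicate 1. ICL1 (_s_at) in these arrays had 4.73, 5.48 and 5.08 log2 units with Al, against 4.77, 4.82 and 4.69 untreated, with overlapping groups. The _at probe set had 4.66, 5.82 and 4.43 with Al, against 4.37 in each untreated array, with no overlap. Its difference of 0.60 ± 0.63 was not called (adjusted p = 0.677 by limma).

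Over all Al minus untreated comparisons that were tested, 7 in number, none of the 21 tests on the 3 probe sets was called by limma, and 2 had an unadjusted p under 0.05, both of ICL1 in PI 416937 at 12 h. Of all tested probe sets, 0.00283%, 4.04% and 0.0397% were called in PI 416937 at 12, 48 and 72 h. In Young 0.105%, 0.0822%, 2.77% and 3.7% were called at 2, 12, 48 and 72 h. The differences ran between -1.73 and 1.69 log2 units, and the lowest adjusted p was 0.29. The groups of a probe set did not overlap in 5 of the 21. These were MS and ICL1 (_at) in Young at 72 h, given above, ICL1 (_s_at) in PI 416937 at 72 h (higher with Al) and in Young at 2 h (lower), and ICL1 (_at) in Young at 48 h (lower). Of all tested probe sets, 3.59%, 13.3% and 9.85% did not overlap in the same direction in the last 3 of these. The spread of each probe set was pooled over the 16 groups. Group SDs ran from 0.0081 to 2.28 for ICL1 (_s_at) and from 0.00051 to 2.59 for MS. A pooled standard error can thus be too small for groups with 1 high array and too large for flat groups. A p that misses the threshold does not show that the levels were alike, with standard errors of 0.52 (_s_at), 0.63 (_at) and 0.87 (MS) between groups of 3 arrays.

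**Figure D2:**
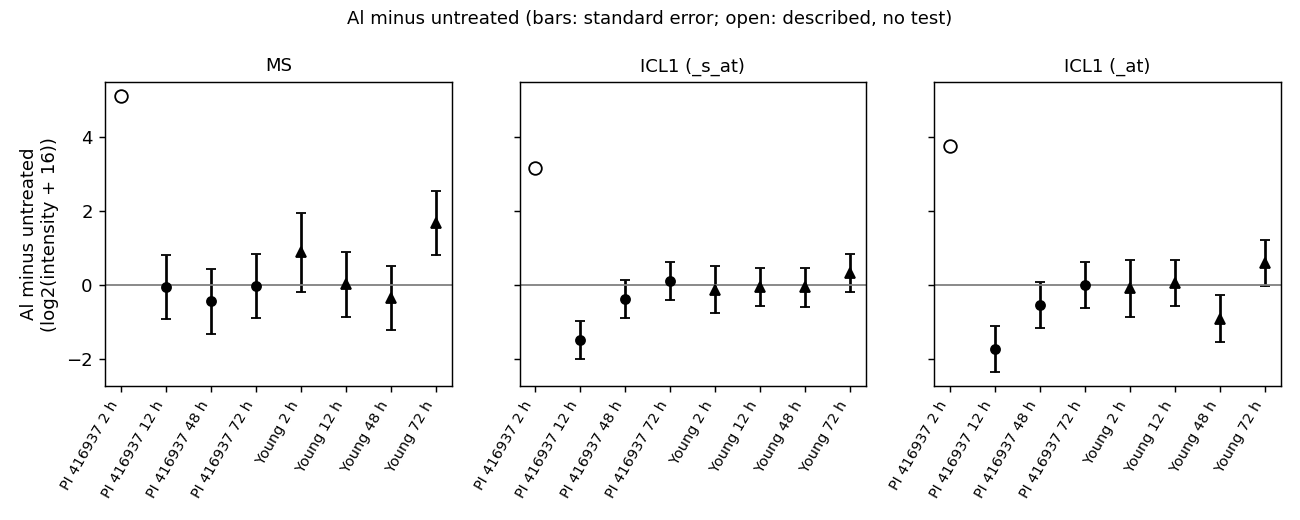
Difference between Al-treated and untreated roots, in log2(intensity + 16), for MS, ICL1 (_s_at) and ICL1 (_at), in each genotype and at each time. Filled points are tested differences with the standard error of the limma contrast as bars; the open point is PI 416937 at 2 h, which chose the members and is described with no test. The open points lie at 5.11, 3.17 and 3.76, and no filled point was called.

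The genotypes were compared at 12, 48 and 72 h, in 6 comparisons and 18 tests, none of them called by limma and 2 with an unadjusted p under 0.05. Of all tested probe sets, 0.924%, 0.89% and 11.4% were called between the genotypes with Al at 12, 48 and 72 h, and 0.805%, 0.618% and 1.3% untreated. In untreated roots at 12 h ICL1 (_s_at) averaged 6.38 log2 units in PI 416937 and 4.91 ± 0.11 in Young, a difference of 1.47 ± 0.52 (unadjusted p = 0.0082, adjusted p = 0.38 by limma). The call turns on single arrays of PI 416937: without replicate 2 the difference was 2.21 with an adjusted p of 0.0265 by limma, and without replicate 1 it was 0.15. The _at probe set gave 1.80 ± 0.63 (adjusted p = 0.361 by limma), 2.71 without replicate 2 (adjusted p = 0.0224 by limma) and 0.33 without replicate 1. With Al at 12 h MS was 6.15 in PI 416937 and 4.45 ± 0.01 in Young, a difference of 1.70 ± 0.87 (adjusted p = 0.52 by limma), which was 1.10 without PI 416937 replicate 2 and 2.53 without replicate 1. At 72 h with Al the order was the other way, 4.41 in PI 416937 and 6.08 ± 2.59 in Young, and the difference of -1.67 ± 0.87 had the lowest adjusted p of all member tests (0.231 by limma). It rests on Young replicate 2, without which it was -0.17, and it was -2.44 without Young replicate 1.

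Neither the 36 tests between times nor the 9 tests of whether the Al response differed between the genotypes gave a call by limma. The tests between times came from 12 comparisons. In PI 416937, 1.51% of all tested probe sets were called between 12 and 48 h and 12.6% between 48 and 72 h with Al, and 0.0708% and 15.8% untreated. In Young with Al, 3% were called between 2 and 12 h, 1.33% between 12 and 48 h, 0.00283% between 48 and 72 h and 12.1% between 2 and 72 h. In untreated Young the shares were 2.79%, 0.612%, 0.0198% and 24.1%. These tests on the members held 2 unadjusted p under 0.05, both of ICL1 in untreated PI 416937 between 12 and 48 h (48 h minus 12 h, -1.13 ± 0.52 by _s_at, adjusted p = 0.467 by limma). Without replicate 1 of 12 h the sign turned, to 0.18 by either probe set. The difference in response was tested in 3 comparisons, where 0%, 0.0113% and 1.71% of probe sets were called at 12, 48 and 72 h. There no member had an unadjusted p under 0.05, and the lowest adjusted p was 0.56 (MS at 72 h, -1.71 ± 1.23, by limma). That difference was -0.21 without Al-treated Young replicate 2.

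Ordered by group mean, MS ran from Al-treated PI 416937 at 2 h (10.08 log2 units) down to untreated Young at 72 h (4.39). The groups next in order were untreated PI 416937 at 12 h (6.20 ± 2.04), Al-treated PI 416937 at 12 h (6.15), Al-treated Young at 72 h (6.08), Al-treated Young at 2 h (5.54 ± 1.57) and untreated PI 416937 at 48 h (5.20 ± 1.35). From the second group on, each of these neighbours differed by less than the SD within either of them. For ICL1 (_s_at) the order was Al-treated PI 416937 at 2 h (8.04), untreated PI 416937 at 12 h (6.38), untreated PI 416937 at 48 h (5.25 ± 0.62) and Al-treated Young at 72 h (5.10 ± 0.37). The second of these differed from the one above it and from the one below it by less than its own SD (2.28). The other 12 ICL1 group means lay between 4.76 and 5.01.

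Taken array by array, high ICL1 by the _s_at probe set came with high MS. All 5 arrays in which it exceeded background by more than 1 log2 unit also had MS above that mark, while 6 of the 11 MS arrays had low ICL1. The PI 416937 arrays of 2 h, which chose the pair, are part of these counts. In the other 40 arrays, 8 had high MS, 3 had high ICL1 (_s_at) and 3 had both, which is 37.5% of the MS arrays and 100% of the ICL1 arrays. Those 8 MS arrays were 5 of 18 from PI 416937 and 3 of 22 from Young. With Al there were 4 and untreated there were 4, and by time there was 1 at 2 h, 4 at 12 h, 2 at 48 h and 1 at 72 h. The _at probe set differs in part, being at 5.89 and 5.54 in untreated Young replicates 1 and 2 at 48 h, where the _s_at probe set stood at 4.89 and 5.23. MS was at 5.53 in the first of these arrays and at background, 4.41, in the second, so high ICL1 by the _at probe set was also seen without MS. MS and ICL1 (_s_at) had a Pearson r of 0.80 over 44 arrays and 0.62 over the 40 arrays other than PI 416937 at 2 h. The probe sets of ICL1 had an r of 0.96 and 0.93 in the same sets. These r are descriptions of arrays that share groups, and they rest on the few high arrays.

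**Figure D3:**
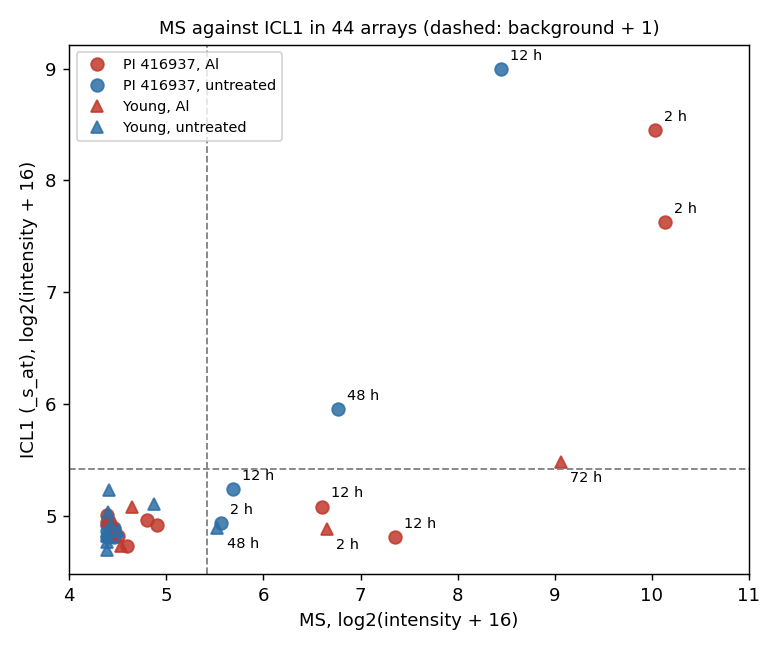
ICL1 (_s_at) against MS in 44 arrays, both as log2(intensity + 16). Circles are PI 416937 and triangles Young, with Al in red and untreated in blue; dashed lines mark background plus 1 log2 unit, and arrays with MS above that mark carry their time. The 5 arrays with high ICL1 all lie right of the MS line, and 6 further arrays have high MS and low ICL1.

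The genes whose levels were most like MS over the 44 arrays were LOC732650 (r = 0.91), LOC100306383 (0.77), CIF1 (0.74), HPPD (0.71) and LOC100804943 (0.71). Without the PI 416937 arrays of 2 h the r were 0.86, 0.49, 0.55, 0.49 and 0.61. LOC732650, on chromosome 6, had 9.46 and 8.93 log2 units in Al-treated and 5.60 and 4.39 in untreated PI 416937 roots at 2 h. It was also raised in some other arrays with high MS, as at 6.69 in untreated PI 416937 replicate 1 at 12 h and 6.80 in Al-treated Young replicate 2 at 72 h. In others with high MS it was low, as at 5.08 in untreated PI 416937 replicate 1 at 48 h. It was 4.68 in Al-treated PI 416937 replicate 3 at 12 h and 4.45 in untreated Young replicate 1 at 48 h. CIF1 had 9.67 and 9.61 with Al and 6.19 and 7.18 untreated in PI 416937 at 2 h. HPPD, which encodes 4-hydroxyphenylpyruvate dioxygenase of tyrosine breakdown, had 8.43 and 7.92 with Al and 6.40 and 5.43 untreated. LOC100804943 spanned only 4.35 to 4.61 and so stayed near background.

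Most like ICL1 (_s_at) were PEPC4 (r = 0.87), LOC732650 (0.82), LOC100806254 (0.80), FAD8.2 (0.80) and LOC100306383 (0.77). Without the PI 416937 arrays of 2 h the r were 0.91, 0.63, 0.87, 0.92 and 0.45. PEPC4 is a phosphoenolpyruvate carboxylase gene and FAD8.2 an omega-3 fatty acid desaturase gene. Their levels spanned only 4.42 to 4.78 and 4.40 to 4.66 log2 units, and LOC100806254 only 4.40 to 4.55, so these likenesses are among values near background.

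**Figure D4:**
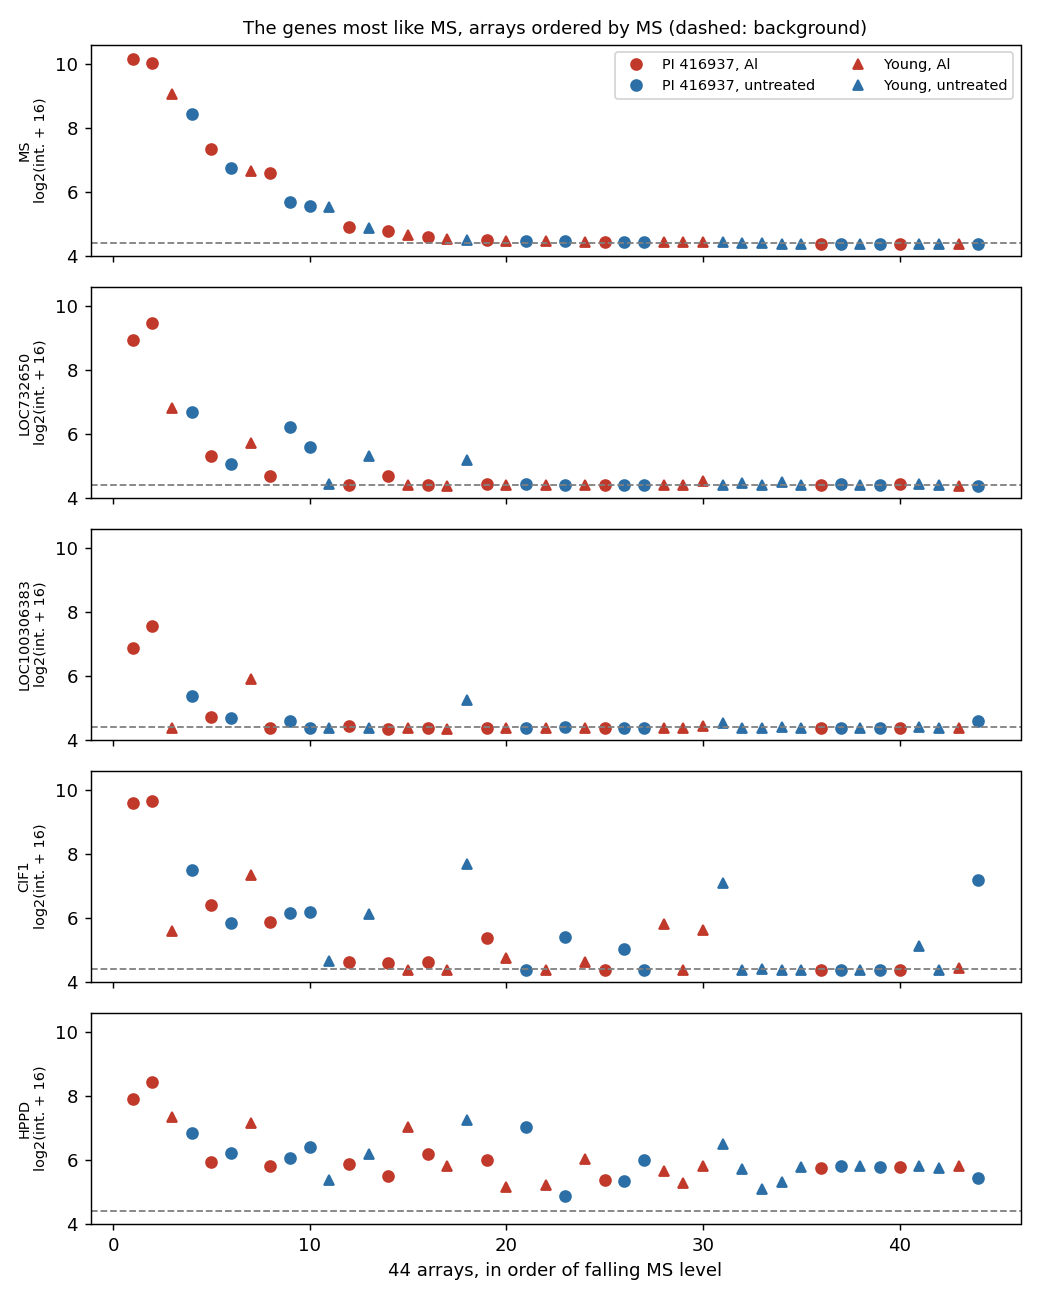
Level of MS and of the 4 genes most like it, as log2(intensity + 16), in 44 arrays ordered by falling MS. Symbols are as for the plot of ICL1 against MS, and the dashed line is background. LOC732650 is high in most arrays with high MS, while CIF1 and HPPD are also high in arrays with MS at background.

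Other genes of the pathway were measured beside MS and ICL1. They were taken from lists matched by gene symbol, so genes without a symbol are missing and the lists are short. Malate dehydrogenase, which turns malate into oxaloacetate in the cycle, was represented by MDH-1. Its level was high, at 12.94 and 12.07 log2 units with Al and 13.09 and 12.79 untreated in PI 416937 at 2 h (its brightest probe set), which overlap. Of the 3 MDH-1 probe sets, the other 2 were lower with Al there with no overlap, and none was higher. Among all probe sets 18.6% were lower and 15.4% higher. The median difference of the 3 was -0.56, against -0.0025 for all. In the 7 tested Al comparisons no MDH-1 probe set was called (0.00283% to 4.04% of all tested probe sets were). Over 12 comparisons between times they had 2 calls lower and 0 higher at the later time (0.00283% to 24.1% of all). Long-chain acyl-CoA synthetase ACSL2, which activates fatty acids for breakdown, was near background in all arrays (4.40 to 5.12).

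The triacylglycerol lipase gene SDP1-3, of the family that starts oil breakdown, had 10.68 and 10.64 log2 units with Al and 8.75 and 10.12 untreated in PI 416937 at 2 h. Both Al arrays were the higher ones, as for 15.4% of all tested probe sets in this comparison. Over the 44 arrays it lay between 7.30 and 10.68, far above background also where MS was low. SDP1-3 was not called in any tested Al comparison. It fell by 1.70 ± 0.46 between 2 and 12 h in Al-treated Young roots (adjusted p = 0.0384 by limma), where 3% of probe sets were called.

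Catalases remove the hydrogen peroxide that peroxisomal fatty acid oxidation gives off. CAT4 had 11.81 and 12.36 log2 units with Al and 11.18 and 11.02 untreated in PI 416937 at 2 h, and CAT1 had 11.84 and 12.20 with Al and 11.77 and 11.49 untreated. The peroxin PEX14, part of the import machinery of peroxisomes, had 9.56 and 9.69 with Al and 9.37 and 9.29 untreated. Of the 6 probe sets of this list, 4 were higher and 1 lower with Al with no overlap, against 15.4% and 18.6% of all probe sets, and the median difference was 0.34. In the tested Al comparisons 0 of the 6 were called (0.00283% to 4.04% of all tested probe sets were). Over 12 comparisons between times the 6 probe sets had 4 calls lower and 1 higher at the later time (0.00283% to 24.1% of all). Over 6 comparisons between genotypes they had 1 call, lower in PI 416937 (0.618% to 11.4% of all). Among the calls between times, CAT4 fell by 1.85 ± 0.56 from 2 to 72 h in untreated Young (adjusted p = 0.0175 by limma, with 24.1% of probe sets called). CAT1 was 0.55 ± 0.16 higher at 72 h than at 2 h in Al-treated Young (adjusted p = 0.0236 by limma, with 12.1% called).

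Of the 11 probe sets for carboxylases and enzymes near the citric acid cycle, 1 was higher with Al and none lower with no overlap in PI 416937 at 2 h (15.4% and 18.6% of all probe sets), with a median difference of -0.13. None was called in a tested Al comparison, where 0.00283% to 4.04% of all tested probe sets were. The most abundant were ADH2, an alcohol dehydrogenase, and the phosphoenolpyruvate carboxylases PEPC7 and PEPC16, which make the oxaloacetate that malate is formed from. PEPC16 had 11.31 and 11.19 log2 units with Al and 11.21 and 11.06 untreated.

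Since the glyoxylate cycle is known from seed tissue, seed proteins were measured beside it. The storage proteins that define seeds were at or near background. By their brightest probe sets, GY1, GY5, GY7, CG-1 and GM2S-1, which encode glycinins, a beta-conglycinin and a 2S albumin, had maxima between 4.36 and 4.41 log2 units over all 44 arrays. Others went slightly above background, the glycinins GY2 (4.43 to 4.62) and GY3 (up to 4.75), the beta-conglycinin CG-BETA-1 (4.43 to 4.54), the seed protein P34 (up to 4.53) and the basic 7S globulin BG7S-2 (up to 4.43). Of the 20 genes on the list, 10 passed the filter, with 13 probe sets. Their summed intensity in PI 416937 at 2 h was 37848 to 78968 with Al and 49976 to 72065 untreated, which overlap. Of these genes the protease inhibitors KTI-2 and KTI-3 had the highest mean levels, and 3 of the 13 probe sets were higher with Al and none lower with no overlap, against 15.4% and 18.6% of all probe sets. Among these, LEA5, a late embryogenesis abundant protein gene, had 10.17 and 10.15 log2 units with Al and 9.25 and 8.92 untreated. In the 7 tested Al comparisons the 13 probe sets had 1 call higher and 0 lower (0.00283% to 4.04% of all tested probe sets were called). Over 12 comparisons between times they had 2 calls higher and 7 lower at the later time (0.00283% to 24.1% of all). Between genotypes 1 call was lower in PI 416937 (0.618% to 11.4% of all), and 1 Al response was lower there (0% to 1.71% of all).

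Markers of other tissues moved with the 2 h values in part. Of 16 probe sets for photosynthetic tissue, 12 were higher and none lower with Al with no overlap in PI 416937 at 2 h, against 15.4% and 18.6% of all probe sets, with a median difference of 1.30. Their summed intensity was 13370 to 13848 with Al and 11114 to 14674 untreated, which overlap. PSAD, the brightest of them, had 13.38 and 12.80 log2 units with Al and 13.17 and 13.74 untreated. The rubisco activase gene RCA14 had 6.93 and 8.34 log2 units with Al and 4.51 and 5.16 untreated. In the untreated PI 416937 arrays of 12 h RCA14 was at 7.58, 7.16 and 6.01, and in the Al-treated Young arrays of 72 h at 4.87, 4.52 and 4.71, so it was low in the Young array with high MS. Of 9 nodule probe sets, 2 were higher and 2 lower with no overlap (15.4% and 18.6% of all), and the summed intensity was 12556 to 14978 with Al and 3276 to 3570 untreated, most of it from NOD33 (13.86 and 13.60 with Al, 11.64 and 11.74 untreated). In the 7 tested Al comparisons the nodule probe sets had 0 calls higher and 2 lower with Al. There, 0.00283% to 4.04% of all tested probe sets were called. No probe set of photosynthetic tissue or of the root markers was called in these comparisons. Root markers were present throughout: the summed intensity of 35 probe sets was 456660 to 515613 with Al and 375917 to 464939 untreated. Of these, 13 were higher and 3 lower with Al with no overlap, again beside 15.4% and 18.6% of all probe sets, with a median difference of 0.24. The part of these markers in the levels of MS and ICL1 was not tested.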

How the data were processed

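Root-tip RNA of 2 genotypes, 2 treatments and 4 times was hybridised to 44 one-colour Affymetrix soybean arrays. The deposited table holds an intensity per probe set and array on a linear scale. The method by which the authors turned scans into these values is not given in the sources used here. Over 61170 probe sets the median intensity of an array was 6.56 to 7.52, and the number of arrays limits the precision.

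Intensities were transformed as log2(intensity + 16). Soybean probe sets with a mean above background in 1 or more of the 16 groups were tested. Array medians of tested probe sets ranged over 0.138, under the limit of 0.2, so no normalisation was added. The test was that of limma 3.58.1 (R 4.3.3), by lmFit with a mean per group, contrasts and trended eBayes, with 28 residual degrees of freedom, in 28 tested comparisons. A further 8, which use the PI 416937 arrays of 2 h, were described. P-values were adjusted by Benjamini-Hochberg over all 35289 probe sets within each comparison, and called under 0.05. The fit was tested on simulated data.

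Probe sets were named from the platform annotation, updated through gene IDs to RefSeq: 8677 had 1 symbol, 370 several, and the rest are unnamed here. Positions are RefSeq's for Glycine_max_v4.0. Of each list, genes with the highest means were named, plus any a sentence singles out, chosen after their values were seen. Likeness was the highest Pearson r over 44 arrays. The members, lists and tests were chosen with earlier results of these data known. The replicate numbers paired Al-treated with untreated arrays in Young at 12 h (residual correlations 0.24 to 0.29) and 48 h (0.38 to 0.48), by correlation only; in the other groups with 3 pairs at least 1 correlation was under 0.1. Alternatives were the pseudocount (1 or 64), no filter, quantile normalisation, no trend, the compared groups alone, a replicate block, and leaving out each replicate.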

Additional observations from a re-analysis of the deposited data

How the results depend on the processing

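Of 1074 alternative values for the tested differences of the 3 probe sets, 1072 stayed on the same side of the threshold. The other 2 passed it with 1 array left out, as given below. The untested differences in PI 416937 at 2 h moved by more than the pooled SD of the compared groups only when the pseudocount was changed. With 2 arrays per group, leaving out 1 array cannot move a difference by more than that SD. Settings that alter only the test leave a difference as it is. Nothing is therefore read from staying within the SD under those settings. In PI 416937 at 2 h, the Al minus untreated difference was 6.28 (MS), 5.54 (ICL1 _at) and 4.11 (ICL1 _s_at) with a pseudocount of 1, and 3.81, 2.26 and 2.02 with a pseudocount of 64. Leaving out 1 array, it ran between 4.52 and 5.70 for MS, 3.24 and 4.27 for ICL1 _at and 2.75 and 3.58 for ICL1 _s_at. The PI 416937 minus Young difference of ICL1 in untreated roots at 12 h passed the threshold only without PI 416937 replicate 2, running between 0.33 and 2.71 (_at) and between 0.15 and 2.21 (_s_at) over the arrays left out; the cause was not tested. Between uncalled values the sign changed 45 times. The lowest adjusted p by limma was 0.231 as reported, 0.224 and 0.213 with pseudocounts of 1 and 64, 0.243 with no filter, 0.219 with quantile normalisation, 0.242 with no trend and 0.0556 with the compared groups alone. With the replicate block, 0 of the 30 tested values were called, the lowest adjusted p being 0.338 by limma (MS in Young at 72 h, 1.69), and the block changed no call. Levels near the background of 4.41 limit what can be seen of both genes in most groups.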
